A study of Mus musculus with 15 samples.

Results

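Gene expression was compared between the thoracic and the abdominal aorta of mice on a high-phosphate diet, with 3 thoracic and 4 abdominal arrays out of the 15 in the series. Both groups (HPD) were DBA/2NCrl mice, 8 weeks old when the experiment began, that ate for 5 days a diet with 20.2 g of phosphorus per kg. The other 8 arrays, 4 of each segment, come from mice of the same strain and age on standard chow (SCD) with 7.0 g of phosphorus per kg, and are set beside the comparison where stated. The members of each group were taken from the array titles, and every one of 22180 genes with a measured value was compared. The titles call the arrays biological replicates. The labels do not say whether each came from a separate mouse, nor whether both segments were cut from the same mice, so a p-value measures the spread between these samples, which may be technical in part. The number of arrays limits the precision.

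The aorta carries blood from the heart along the spine, and its wall differs along the way. The thoracic part holds more elastic lamellae, while the abdominal part is thinner and more muscular, and smooth muscle cells of successive stretches descend from different embryonic tissues. Hox genes, transcription factors that give cells their position along the body axis, stay active in adult vessels. A dissected segment also brings along what surrounds it. Near the heart this can be cardiac muscle, and around the abdominal aorta it can be sympathetic ganglia, paraganglia and lymph nodes, with fat along the whole length. In whole tissue, fewer cells of a type and less RNA per cell cannot be told apart.

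Values are log2 intensities, 1 per gene and array. A difference is thoracic minus abdominal on the log2 scale ± its standard error, so that a positive value means higher in the thoracic segment. A gene was called at an adjusted p under 0.05 (limma, Benjamini-Hochberg over all 22180 genes, two-sided). Array medians lay between 5.778 and 5.84, and arrays of the same group correlated at 0.9739 to 0.9885 across probe sets. Contractile genes of smooth muscle were expressed in every array, with a mean over 26 genes of 8.09 or more in each. This does not show which segment an array came from.

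Other tissues were present to unequal degrees. Averaged over 21 genes of T and NK cells, abdominal arrays 1 to 4 read 7.60, 7.59, 5.83 and 7.22, and thoracic arrays 1 to 3 read 5.61, 5.44 and 5.40. The mean of 21 B and plasma cell genes was 7.48, 7.51, 6.11 and 6.87 in the abdominal arrays and 5.83, 5.92 and 5.87 in the thoracic ones. Abdominal arrays 1, 2 and 4 thus carried a lymphoid signal that array 3 held to a small degree. The mean of 34 hepatocyte genes was 5.47, 5.49, 7.32 and 9.08 in abdominal arrays 1 to 4, against 5.44 to 5.49 in the thoracic arrays. Albumin (Alb), the main plasma protein of liver, was named after its values were seen. It read 5.24 and 5.44 in abdominal arrays 1 and 2, 10.97 and 12.36 in arrays 3 and 4, and 5.24 to 5.74 in the thoracic arrays. Alb and the hepatocyte mean were thus high in abdominal arrays 3 and 4, and no abdominal array was free of both signals. Counts of calls are therefore also given with array 3 as the only abdominal array, and for some lists without abdominal arrays 3 and 4 or with the means of the lymphocyte and the hepatocyte lists as covariates. A lone array is assumed to vary like the arrays of the other groups. A difference against 1 array has a larger standard error, so that a call can be lost with no change in its size. The lymphocyte means also differ between the segments, so that a fit with them as covariates can lose a call in the same way.

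**Figure D1:**
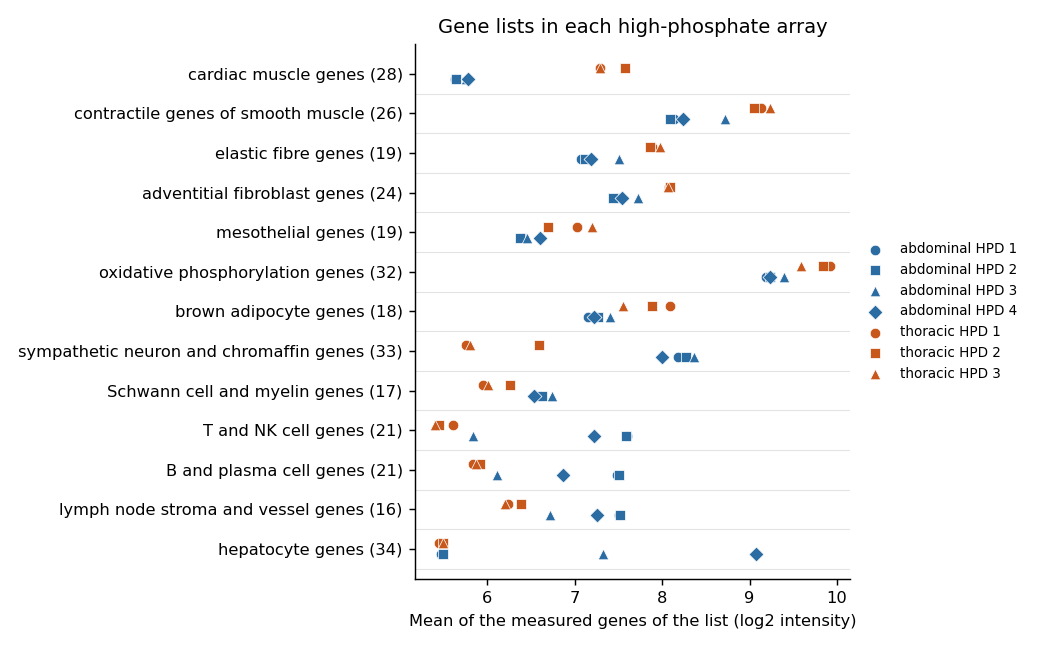
Mean log2 intensity of the measured genes of 13 lists (number of genes in parentheses) in each of the 4 abdominal (blue) and 3 thoracic (orange) high-phosphate arrays, with 1 marker shape per array number. The T and NK cell mean is 7.22 to 7.60 in abdominal arrays 1, 2 and 4 and 5.83 in array 3, the hepatocyte mean is 7.32 and 9.08 in abdominal arrays 3 and 4, and cardiac genes are higher in every thoracic array than in any abdominal one.

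Of the 22180 genes, 3067 were called, which is 13.8%. Of these, 1680 (7.57% of all genes) were higher in the thoracic segment and 1387 (6.25%) in the abdominal one. The larger differences lay on the abdominal side. At least 2-fold differences were called for 148 genes higher in thoracic and 472 higher in abdominal arrays, and at least 4-fold ones for 27 and 112. The median difference over all genes was 0.038. With each array centred on its median 3350 genes were called, 2147 higher in thoracic and 1203 in abdominal. The 3 thoracic and 4 abdominal arrays did not overlap for 5280 genes (23.8%), and 2805 of the calls were among them.

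The number of calls rested on which arrays were used. Abdominal array 3 lay above abdominal arrays 1, 2 and 4, and so on the thoracic side of them, for 1142 of the 1680 genes called higher in thoracic, against 7676 of all genes. The count of calls was 1695 without thoracic array 1, 2029 without thoracic array 3, 2000 without abdominal array 1, 1849 without abdominal array 2 and 4025 without abdominal array 3. In each fit that left out 1 of the 7 arrays, 1237 genes were called, 693 higher in thoracic and 544 higher in abdominal. With array 3 as the only abdominal array 296 genes (1.33%) were called, 69 (0.311%) higher in thoracic and 227 (1.02%) in abdominal. Without abdominal arrays 3 and 4 there were 3578 calls (16.1%), 1733 (7.81%) and 1845 (8.32%). With the lymphocyte covariate there were 346 calls, and with the hepatocyte covariate beside it 62 (0.28%). Of these 62, 36 (0.162%) were higher in thoracic and 26 (0.117%) in abdominal. Calls were lost under both covariates with and without a change in size. Sympathetic neuron and chromaffin genes went from 26 calls to 5, with a median of -2.37 before and -2.43 after. Contractile genes of smooth muscle went from 24 calls to 1, and their median from 0.86 to 0.42. Calls in the main comparison that also held in the same direction with array 3 alone and without arrays 3 and 4 numbered 205, of which 55 were higher in thoracic and 150 in abdominal.

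**Figure D2:**
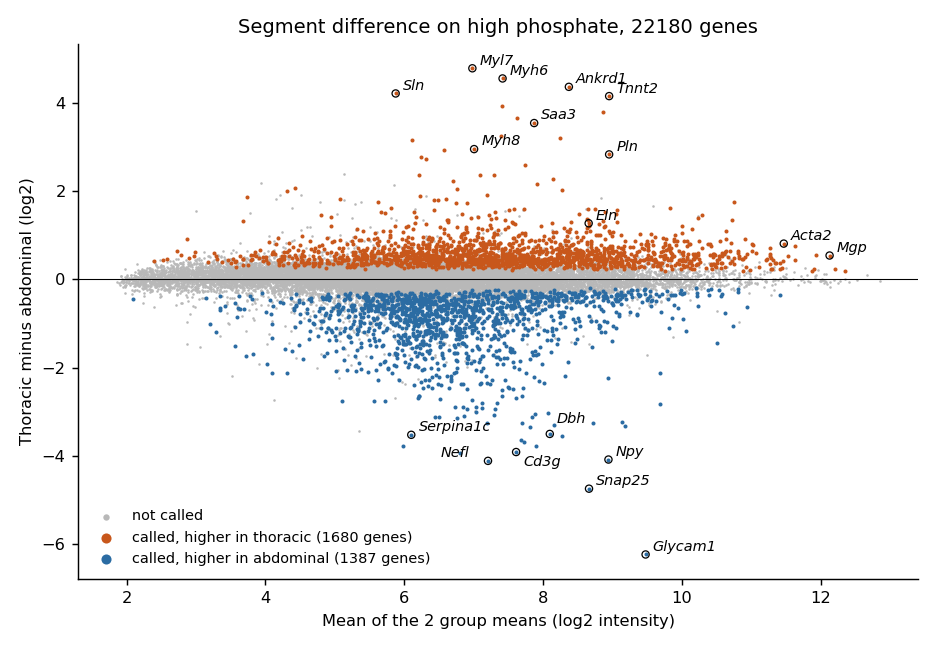
Thoracic minus abdominal difference on high phosphate (log2, vertical) against the mean of both group means (log2 intensity, horizontal) for 22180 genes, with the 1680 genes called higher in thoracic in orange, the 1387 called higher in abdominal in blue and the rest in grey. Among the genes named, cardiac genes such as Myl7 (4.78) lead the thoracic side, and Glycam1 (-6.23) and neuronal genes such as Snap25 (-4.74) lead the abdominal one.

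Genes of cardiac muscle led the thoracic side. Of 28 measured, 19 were called higher in thoracic arrays and 0 lower, and their median difference was 1.03, against 0.038 over all genes. Myl7, the atrial regulatory myosin light chain, read 4.67, 4.31, 4.58 and 4.78 in abdominal arrays 1 to 4, and 8.99, 9.67 and 9.45 in thoracic arrays 1 to 3. All 3 thoracic arrays were far above all 4 abdominal ones, a difference of 4.78 ± 0.278 (27.5-fold, adjusted p 2.28e-07). Myh6, the cardiac alpha myosin heavy chain, read 4.84 to 5.24 in the abdominal arrays and 9.50, 10.36 and 9.19 in the thoracic ones, a difference of 4.55 ± 0.233 (adjusted p 5.52e-08). Ankrd1, a stretch-responsive protein of the cardiac sarcomere, was 6.12, 6.08, 6.61 and 5.97 against 10.32, 10.86 and 10.48, with the smallest adjusted p of all genes named here (4.36 ± 0.18, adjusted p 4.86e-09). In each of these genes thoracic array 2 was the highest of the 7 arrays.

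Sarcolipin (Sln), a brake on the calcium pump of the sarcoplasmic reticulum, was higher by 4.21 ± 0.323, and phospholamban (Pln), which acts on the same pump and is also made by smooth muscle, by 2.83 ± 0.189. The cardiac troponins T and I (Tnnt2 and Tnni3) were higher by 4.15 and 3.21, troponin C (Tnnc1) by 3.79, and the atrial natriuretic peptide precursor Nppa by 2.37 ± 0.255. Myl2, the ventricular light chain, was named after its values were seen. It lay between 5.55 and 5.86 in abdominal and between 5.76 and 6.10 in thoracic arrays and was not called (0.27 ± 0.148, adjusted p 0.249). Of the 28 cardiac genes 12 were called with array 3 as the only abdominal array and 11 under both covariates, with medians of 0.87 and 0.86. On chow 17 of the 28 were called higher in thoracic, with a median of 0.83.

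Muc16, a mucin of serosal surfaces, and Saa3, an acute-phase protein made outside the liver, were also among the largest thoracic differences. Muc16 was 4.38, 4.02, 5.93 and 3.79 in the abdominal arrays and 8.17, 6.56 and 8.30 in the thoracic ones (3.15 ± 0.628, adjusted p 0.00474). Saa3 was 4.99, 5.46, 7.31 and 6.63 against 8.34, 10.25 and 10.34 (3.54 ± 0.641, adjusted p 0.00246). Neither kept its call with array 3 alone, where Muc16 differed by 1.75 (adjusted p 0.477) and Saa3 by 2.33 (adjusted p 0.284). Myh8, the perinatal myosin heavy chain, was 5.24 to 5.89 in the abdominal arrays and 8.22, 6.05 and 11.17 in the thoracic ones. Its difference of 2.95 ± 0.738 (adjusted p 0.0163) was carried mostly by thoracic arrays 1 and 3, and on chow it was 0.00 (adjusted p 0.999). The mean of 23 skeletal muscle genes was 7.17 in thoracic array 3, above the 6.31 and 6.20 of thoracic arrays 1 and 2, and 5.71 to 6.88 in the abdominal arrays. Its part in the result for Myh8 was not tested.

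Genes of sympathetic neurons and chromaffin cells, which make and store noradrenaline, stood highest on the abdominal side. Of 33 measured, 26 were called higher in abdominal arrays and 0 in thoracic ones, with a median of -2.37. Npy, neuropeptide Y, the co-transmitter of sympathetic nerves, read 10.97, 11.14, 11.18 and 10.63 in abdominal arrays 1 to 4, and 6.28, 7.89 and 6.52 in thoracic arrays 1 to 3. The groups were far apart, with thoracic array 2 nearest to the abdominal arrays (-4.08 ± 0.336, adjusted p 7.98e-06). Dbh, the enzyme that turns dopamine into noradrenaline, was 9.96, 9.87, 10.06 and 9.49 against 5.48, 7.45 and 6.10 (-3.50 ± 0.407, adjusted p 0.000183). Tyrosine hydroxylase (Th), the first enzyme of that path and named after its values were seen, differed by -2.64 ± 0.319 (adjusted p 0.000196). The vesicular monoamine transporter Slc18a2 differed by -3.02 ± 0.355. Pnmt, the adrenaline-forming enzyme of the adrenal medulla, also named after its values were seen, lay between 3.88 and 4.19 in all 7 arrays and was not called (0.09 ± 0.112, adjusted p 0.628).

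Proteins of secretory granules and of synapses followed. Chromogranin B (Chgb), a granule matrix protein, was 9.39, 9.73, 9.85 and 9.28 in the abdominal and 5.17, 6.63 and 5.82 in the thoracic arrays (-3.69 ± 0.339, adjusted p 2.44e-05). Secretogranin II (Scg2) was 9.36, 9.50, 10.02 and 9.13 against 5.21, 7.07 and 5.31 (-3.64 ± 0.483, adjusted p 0.000345). Snap25, part of the complex that fuses synaptic vesicles, was 11.11, 11.13, 11.17 and 10.72 against 5.13, 8.66 and 5.07 (-4.74 ± 0.633, adjusted p 0.00036). Thoracic array 2 again stood above thoracic arrays 1 and 3, and below every abdominal array. The mean of the 33 genes was 6.59 in thoracic array 2, 5.75 and 5.80 in thoracic arrays 1 and 3, and 8.00 to 8.36 in the abdominal arrays, and 26 genes were called without thoracic array 2 as well. The nicotinic receptor subunit Chrna3, which receives the ganglionic signal, differed by -3.55, the neurofilament light chain Nefl by -4.11, peripherin (Prph) by -2.16 and the growth-cone protein Gap43 by -3.25. Against abdominal array 3 only, 19 of the 33 genes were called and the median was -2.57, and under both covariates 5 were called with a median of -2.43. On chow 26 were called, with a median of -2.19, and 25 of the genes were called on both diets.

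Promoters of the granule genes are shown because these genes were higher together and their granule products are classical targets of cyclic AMP signalling. The cyclic AMP response element TGACGTCA, which binds CREB, was searched on both strands in the 250 bases before the start of each gene, in RefSeq promoters of GRCm38.p6. It was found in 478 of 27025 genes (1.77%), and in 5 of the 23 sympathetic and chromaffin genes that matched out of 35 listed (21.7%), namely Th, Chgb, Scg2, Cartpt and Pcsk1. It was also found in 3 of 25 oxidative phosphorylation genes (12%), 1 of 14 elastic fibre genes (7.14%), 1 of 21 smooth muscle genes (4.76%) and 0 of 25 cardiac genes. The stretches below read 5′ to 3′ along the gene, with the element in capitals, starting 72 bases before the start of Chgb (chr2:132781524-132781623, plus strand) and 68 before that of Scg2 (chr1:79440041-79440140, minus strand).
Chgb: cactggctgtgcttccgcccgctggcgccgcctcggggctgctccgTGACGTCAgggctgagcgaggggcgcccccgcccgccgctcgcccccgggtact
Scg2: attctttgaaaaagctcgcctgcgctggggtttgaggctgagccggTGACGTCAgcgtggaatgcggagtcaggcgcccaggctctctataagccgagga
A match describes the letters and not a working site.

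Genes of Schwann cells, which ensheath peripheral nerve fibres, were higher in the abdominal arrays for 8 of 17 measured and higher in thoracic ones for 0, with a median of -0.32. Cdh19, a cadherin of Schwann cell precursors, was 8.71, 9.01, 9.43 and 8.64 against 6.41, 6.71 and 5.67 (-2.68 ± 0.275, adjusted p 6.26e-05). Fabp7, a fatty acid binding protein of glia, differed by -2.28 ± 0.419 and the nerve growth factor receptor Ngfr by -0.94 ± 0.188. When only abdominal array 3 was kept, 3 of the 17 genes were called, and 1 under both covariates. Among guidance molecules the semaphorin receptor Plxnc1 differed by -2.34 ± 0.256 (adjusted p 0.000109), with 7.82 to 8.63 in abdominal and 5.82 to 6.42 in thoracic arrays. Sema3c, a secreted semaphorin, was higher in thoracic arrays by 1.08 ± 0.155. Without abdominal arrays 1, 2 and 4, Plxnc1 differed by -1.80 (adjusted p 0.0388) and Sema3c by 0.72 (adjusted p 0.132).

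The lymph node gene Glycam1, a ligand for L-selectin made by high endothelial venules, had the largest difference among the genes named here. Predicted genes, pseudogenes and antigen receptor segments were left out of this ranking. It read 12.78, 12.71, 12.20 and 12.68 in abdominal arrays 1 to 4 and 6.37, 6.28 and 6.43 in thoracic arrays 1 to 3 (-6.23 ± 0.622, 75.1-fold, adjusted p 4.95e-05). Abdominal array 3, which was low in lymphocyte genes, was nearly as high as the others. In the fit with abdominal array 3 only, the difference was -5.84 (adjusted p 0.0192). Of 16 genes of lymph node stroma and vessels 5 were called higher in abdominal and 0 in thoracic, with a median of -0.58, and Ackr1, a chemokine-binding receptor of venules, differed by -0.82 ± 0.161. On abdominal array 3 alone, 1 of the 16 was called higher in each segment, and Ackr1 differed by -0.78 (adjusted p 0.204).

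Lymphocyte genes were higher in 13 of 21 cases for T and NK cells and 10 of 21 for B and plasma cells, with medians of -1.31 and -0.98, and none was higher in thoracic. The highest values were in abdominal arrays 1, 2 and 4. Cd3g, a chain of the T cell receptor complex, read 10.48, 10.51, 7.37 and 9.91 in the abdominal and 6.18, 5.68 and 5.10 in the thoracic arrays (-3.91 ± 0.915, adjusted p 0.0116). Il7r, the interleukin-7 receptor, read 10.51, 10.46, 7.91 and 10.32 against 7.23, 6.38 and 5.92 (-3.29 ± 0.731). The T cell chemokine Ccl5 was 11.52, 11.51, 8.55 and 11.46 against 7.51 to 7.55 (-3.24 ± 0.776). Abdominal array 3 was the lowest abdominal array for all 3 genes and still above the thoracic ones. With array 3 as the only abdominal array limma called 0 genes of either list, and 1 of each had an unadjusted p under 0.05. Cd3g then differed by -1.71 (adjusted p 0.685), and the medians were -0.24 and -0.20. Without thoracic array 2 the calls numbered 4 and 2. On chow limma called 0 of either list, with 9 and 5 at an unadjusted p under 0.05 and medians of -0.78 and -0.39, and abdominal chow arrays 1 to 4 averaged 5.45, 6.91, 5.87 and 7.40 over the T and NK cell list, against 5.47 to 5.51 in thoracic ones. Among all genes, 115 of the 1387 abdominal calls had array 3 at least 1 below arrays 1, 2 and 4.

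Of 34 hepatocyte genes 4 were called higher in abdominal and 0 in thoracic, with a median of -1.31. The 4 calls are to be read against the 6.25% called higher in abdominal over all genes. An unadjusted p under 0.05 in limma was reached by 11 of the 34. Serpina1c, an alpha-1 antitrypsin, read 6.31, 5.74, 9.19 and 10.20 in the abdominal and 3.93, 4.56 and 4.52 in the thoracic arrays (-3.52 ± 0.893, adjusted p 0.0173). The call was lost without thoracic array 1 (adjusted p 0.0674), and its difference without abdominal arrays 3 and 4 was -1.69 (adjusted p 0.09). Serpina1 genes are near-identical copies, so that their probe sets may share signal. Vtn, vitronectin, was 7.85, 7.73, 7.94 and 9.90 against 6.57, 6.87 and 6.66 (-1.65 ± 0.373, adjusted p 0.00942). Without abdominal arrays 3 and 4 the median over the 34 genes was 0.10, and 3 were higher in thoracic and 4 in abdominal. Against abdominal array 3 only, 22 were called higher in abdominal, with a median of -1.33. On chow limma called 0 of the 34, with 0 at an unadjusted p under 0.05 (median 0.19).

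Most contractile genes of smooth muscle were called higher in the thoracic segment. Of 26 measured, 24 were called higher in thoracic and 0 in abdominal, with a median of 0.86, and the groups did not overlap for 23. Cnn1, calponin, which binds actin in differentiated smooth muscle, read 8.15, 8.19, 9.12 and 8.20 in abdominal arrays 1 to 4, and 9.66, 9.65 and 9.85 in thoracic arrays 1 to 3 (1.30 ± 0.217, 2.47-fold, adjusted p 0.0015). Acta2, smooth muscle alpha actin, read 10.98, 10.87, 11.48 and 10.91 against 11.85, 11.78 and 11.99 (0.81 ± 0.135, adjusted p 0.00148). Synpo2, an actin-bundling protein, read 8.01, 8.00, 8.43 and 8.07 against 9.24, 9.12 and 9.30 (1.10 ± 0.124, adjusted p 0.000145). For each of these genes the thoracic arrays were above every abdominal array, and abdominal array 3 was the nearest to them.

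The integrin Itga8 was higher by 1.34 ± 0.239, the myosin heavy chain Myh11 by 0.78 ± 0.155, the calcium-activated potassium channel subunit Kcnmb1 by 1.25 ± 0.228, and the coactivator Myocd, which drives this program together with Srf, by 0.99 ± 0.233. Srf itself was not called (0.21 ± 0.115, adjusted p 0.246), nor was the intermediate filament protein Synm (0.09 ± 0.128, adjusted p 0.699). Most of these calls were lost without abdominal arrays 1, 2 and 4. When only abdominal array 3 was kept, 1 of 26 was called, Synpo2 (0.79, adjusted p 0.0451), and the median was 0.42. Cnn1 then differed by 0.60 (adjusted p 0.329) and Acta2 by 0.39 (adjusted p 0.323). Without abdominal arrays 3 and 4 there were 24 calls with a median of 1.07. On chow 12 were called higher in thoracic, with a median of 0.53. The list mean was 8.14, 8.09, 8.72 and 8.24 in the abdominal and 9.05 to 9.24 in the thoracic arrays, and 8.96 to 9.15 in the thoracic chow arrays. Under both covariates 1 of the 26 was called higher in thoracic, with a median of 0.42. The part of lymphoid RNA in the difference was not tested apart from the fits with covariates.

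Promoters of contractile genes are shown for the CArG box, the element bound by Srf, in muscle genes that were higher together. It was searched by the same rule and found in 439 of 27025 genes (1.62%). It was in 4 of the 21 smooth muscle genes that matched out of 26 (19%), namely Myl9, Srf, Vcl and Ldb3, and in 3 of 25 matched cardiac genes (12%), Myl7, Myl3 and Actc1. It was in 0 of the 23 sympathetic and chromaffin genes, 0 of 25 oxidative phosphorylation genes and 0 of 14 elastic fibre genes. The stretches hold the box in capitals, 161 bases before the start of Myl9 (chr2:156775257-156775358, plus strand), 227 before Vcl (chr14:20929148-20929226, plus), 35 before Ldb3 (chr14:34588682-34588762, minus) and 61 before Myl7 (chr11:5898788-5898889, minus). No printed stretch holds both motifs.
Myl9: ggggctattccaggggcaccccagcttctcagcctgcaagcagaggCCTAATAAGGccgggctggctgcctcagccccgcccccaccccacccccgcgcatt
Vcl: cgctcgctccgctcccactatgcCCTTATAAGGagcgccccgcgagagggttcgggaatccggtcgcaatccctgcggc
Ldb3: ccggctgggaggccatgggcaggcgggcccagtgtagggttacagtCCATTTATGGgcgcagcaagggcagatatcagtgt
Myl7: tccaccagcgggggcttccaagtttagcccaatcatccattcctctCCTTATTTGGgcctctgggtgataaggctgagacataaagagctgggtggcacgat
Myl9, a regulatory light chain, was higher in thoracic arrays by 0.86 ± 0.158, the focal adhesion protein Vcl by 0.62 ± 0.118 and the Z-disc protein Ldb3 by 1.19 ± 0.164, against the 4.78 of the atrial chain Myl7 given above.

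**Figure D3:**
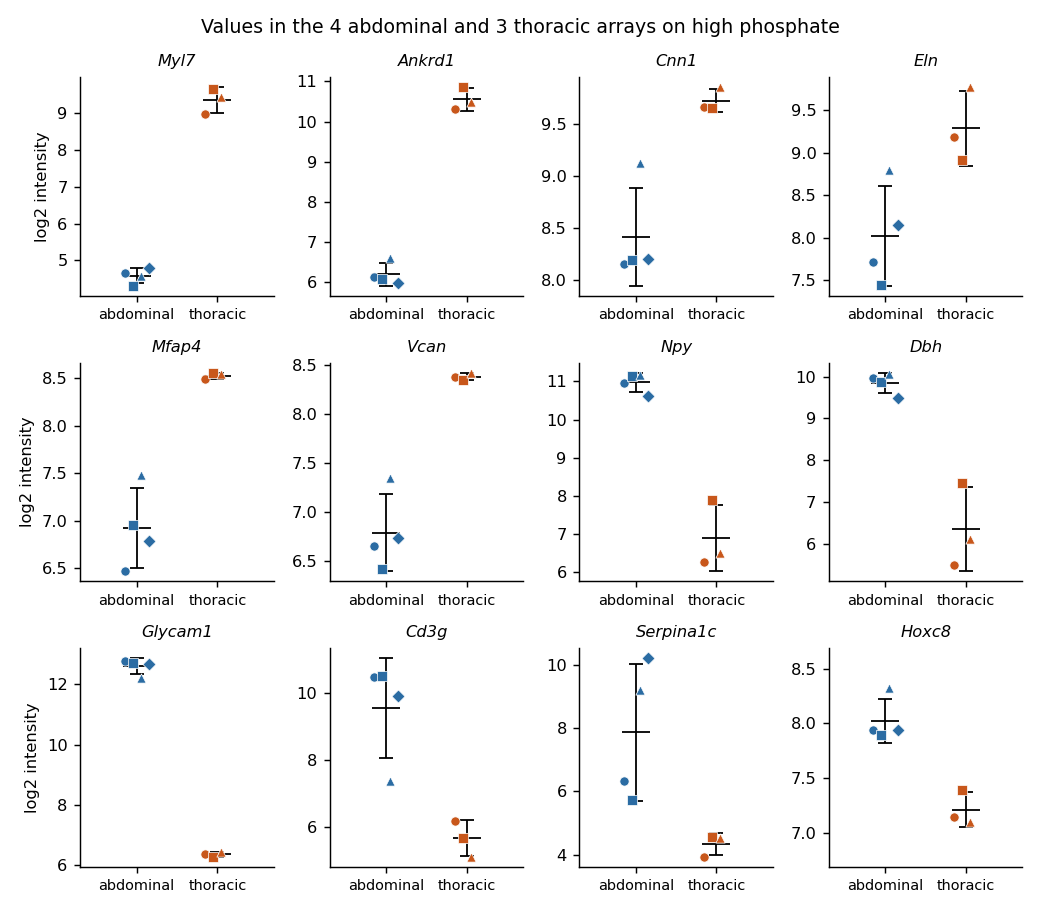
Log2 intensity of 12 genes in the 4 abdominal (blue) and 3 thoracic (orange) high-phosphate arrays, with the group mean and 1 SD, 1 marker shape per array number and an axis that does not start at 0. For Cnn1, Eln, Mfap4 and Vcan abdominal array 3 is the abdominal array nearest to the thoracic ones, for Cd3g it is the lowest abdominal array (7.37), and Glycam1, Npy and Dbh are high in all 4 abdominal arrays.

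Genes of the elastic fibre, the elastin core and the fibrillin-based scaffold around it, were higher in thoracic arrays for 11 of 19 measured and in abdominal ones for 0, with a median of 0.65. Eln, elastin, read 7.71, 7.44, 8.79 and 8.15 in the abdominal arrays and 9.18, 8.91 and 9.77 in the thoracic ones (1.27 ± 0.282, 2.41-fold, adjusted p 0.00885). Mfap4, a protein of the microfibril, read 6.47, 6.96, 7.48 and 6.79 against 8.49, 8.55 and 8.54 (1.60 ± 0.19, adjusted p 0.000194). Efemp1, fibulin-3, read 9.33, 9.26, 9.95 and 9.61 against 11.00, 10.94 and 10.82 (1.38 ± 0.161, adjusted p 0.000187). The thoracic arrays were higher without overlap in all 3. For Eln abdominal array 3 came close to thoracic array 2.

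Mfap5, another microfibril protein, was higher by 1.46 ± 0.208, the cross-linking enzymes Lox and Loxl1 by 1.16 ± 0.216 and 0.96 ± 0.136, and fibulin-5 (Fbln5), which guides elastic fibre assembly, by 1.00 ± 0.176. Fbn2 (-0.10 ± 0.0762) and Ltbp2 (0.10 ± 0.171) were not called. Without abdominal arrays 1, 2 and 4, 2 of 19 were called, Efemp1 (0.97, adjusted p 0.0405) and Mfap4 (1.04, adjusted p 0.0314), and Eln differed by 0.50 (adjusted p 0.635). Under both covariates 1 of the 19 was called higher in thoracic, with a median of 0.36. On chow 6 were called higher in thoracic, with a median of 0.34.

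Among proteoglycans and matricellular proteins 16 of 28 were higher in thoracic and 1 in abdominal, with a median of 0.56. Vcan, the large proteoglycan versican, read 6.65, 6.42, 7.34 and 6.73 in the abdominal and 8.38, 8.34 and 8.42 in the thoracic arrays (1.59 ± 0.174, 3.02-fold, adjusted p 0.000109). All thoracic arrays were above all abdominal ones and close to each other, and the call held with array 3 alone (1.04, adjusted p 0.0197) and under both covariates (1.15, adjusted p 0.0215). Postn, periostin, differed by 0.79 ± 0.112, biglycan (Bgn) by 0.75 ± 0.119 and fibromodulin (Fmod), which binds collagen fibrils, by 0.72 ± 0.109. In the fit with abdominal array 3 only, 1 of the 28 was called, Vcan, with a list median of 0.30, and on chow 2 were higher in thoracic and 1 in abdominal.

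Of 30 collagen chains 11 were higher in thoracic and 1 in abdominal, with a median of 0.25. Col1a2, a chain of type I collagen, was 10.04, 9.79, 10.51 and 9.99 against 11.12, 11.25 and 11.16 (1.10 ± 0.13, adjusted p 0.000194). Col14a1, a fibril-associated collagen, differed by 1.07 ± 0.135, Col6a1 by 0.79 ± 0.1 and Col3a1, the main chain of type III, by 0.77 ± 0.121. Col11a1, a minor fibrillar chain of cartilage, was the 1 chain higher in abdominal arrays (-0.45 ± 0.118). That call was lost without abdominal array 2, thoracic array 1 or thoracic array 3, with adjusted p up to 0.0949. On abdominal array 3 alone, 2 chains were higher in thoracic, Col1a2 (0.67, adjusted p 0.0294) and Col6a1 (0.63, adjusted p 0.032), and 1 in abdominal, and the median was 0.06. Under both covariates limma called 0 chains, with 7 at an unadjusted p under 0.05 and a median of 0.08.

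Genes of adventitial fibroblasts, the cells of the outer coat, were higher in thoracic for 12 of 24 and in abdominal for 0, with a median of 0.48. The stromal marker Cd248 was 7.11, 6.93, 7.30 and 7.32 against 8.31, 8.13 and 8.18 (1.04 ± 0.127, adjusted p 0.000196), and Pi16, a marker of adventitial fibroblasts, differed by 1.14 ± 0.149. With array 3 as the only abdominal array 1 of the 24 was called, Cd248 (0.91, adjusted p 0.0361), with a median of 0.44, and under both covariates 1, with a median of 0.31. On chow 2 of the 24 were called, with a median of 0.11.

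The Hox genes that differed lay mostly in the HoxC cluster. Of 36 measured Hox genes 2 were called higher in thoracic and 7 higher in abdominal, and 5 of the latter belong to that cluster. The 9 calls are to be read against 13.8% of all genes. Hoxc8 read 7.94, 7.89, 8.32 and 7.94 in abdominal arrays 1 to 4 and 7.14, 7.39 and 7.10 in thoracic arrays 1 to 3 (-0.82 ± 0.127, adjusted p 0.00101). Hoxc6 read 7.08, 6.96, 7.15 and 6.97 against 6.26, 6.31 and 6.47 (-0.69 ± 0.113, adjusted p 0.00134). The groups did not overlap for either gene, and abdominal array 3 was the farthest from the thoracic arrays, the reverse of its place among contractile genes. Hoxc10 differed by -0.76 ± 0.186, Hoxc9 by -0.44 ± 0.0741 and Hoxa9 by -0.57 ± 0.116, all 3 called. Against abdominal array 3 only, Hoxc8 (-1.12, adjusted p 0.0121) and Hoxa9 (-0.80, adjusted p 0.025) were called, and Hoxc6 (-0.81, adjusted p 0.0542), Hoxc9 (-0.42, adjusted p 0.152) and Hoxc10 (-0.92, adjusted p 0.135) were not. Under both covariates Hoxc6 was called (-0.99, adjusted p 0.023) and Hoxc8 was not (adjusted p 0.0602). Hoxc5 was not called (-0.18 ± 0.128, adjusted p 0.393).

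Other Hox calls were lost when 1 array was left out. Hoxc4 (-0.38 ± 0.105) was lost without abdominal array 1 or thoracic array 1, with adjusted p up to 0.126. Hoxd9 (-0.34 ± 0.104) was lost without any 1 of abdominal arrays 1 to 4 or thoracic arrays 2 and 3, or without abdominal chow array 2 or thoracic chow array 4, with adjusted p up to 0.162. On the thoracic side Hoxb4 was 5.91, 5.95, 6.59 and 5.93 against 6.54, 6.84 and 7.12, with overlap between abdominal array 3 and thoracic array 1 (0.74 ± 0.176, adjusted p 0.0127). It was lost without thoracic array 3 (adjusted p 0.0654), and with array 3 as the only abdominal array it differed by 0.24 (adjusted p 0.777). Hoxa5 (0.41 ± 0.119) was lost without any 1 of the 7 arrays other than abdominal array 3, up to 0.102. On chow Hoxc8 differed by -1.22 (adjusted p 4.13e-05), Hoxc6 by -0.67, Hoxc9 by -0.58, Hoxc10 by -0.96 and Hoxa9 by -0.87, all called. Hoxd8 was called on chow (-0.44, adjusted p 0.0279) and not on high phosphate (-0.15, adjusted p 0.429), a difference between diets of 0.29 that did not pass the test.

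Other transcription factors of regional identity split evenly, with 8 of 55 higher in thoracic and 6 in abdominal and a median of 0.04. These counts are to be read against 7.57% and 6.25% over all genes. Tbx5, which patterns the heart and forelimb and is also in the cardiac list, was 5.11, 4.80, 5.34 and 5.19 against 6.01, 6.32 and 5.73 (0.91 ± 0.137, adjusted p 0.000852). Osr1, a factor of intermediate mesoderm and fibroblasts, was higher in thoracic by 1.20 ± 0.2, and Heyl, a Notch target of mural cells, by 0.77 ± 0.151. Nr2f2, COUP-TFII, a factor of veins and lymphatics, was 7.30, 7.33, 7.59 and 7.17 against 6.55, 6.62 and 6.71 (-0.72 ± 0.106, adjusted p 0.000733). When only abdominal array 3 was kept, 0 of the 55 were called higher in thoracic and 2 in abdominal. Nr2f2 then differed by -0.96 (adjusted p 0.00996), Tbx5 by 0.68 (adjusted p 0.125), Osr1 by 0.55 (adjusted p 0.291) and Heyl by 0.45 (adjusted p 0.443). Eya1 (-2.18 ± 0.351), Isl1 (-1.52 ± 0.264), Mab21l1 (-1.56 ± 0.289) and Hand2 (-1.45 ± 0.297) were higher in abdominal arrays, and none of these 4 was called with array 3 alone, with differences of -2.41, -1.67, -1.71 and -1.35. Hand2 and Isl1 are also in the list of sympathetic neuron and chromaffin genes. That list was mostly higher in abdominal arrays and counts both genes. The part of nerve tissue in these 4 was not tested.

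**Figure D4:**
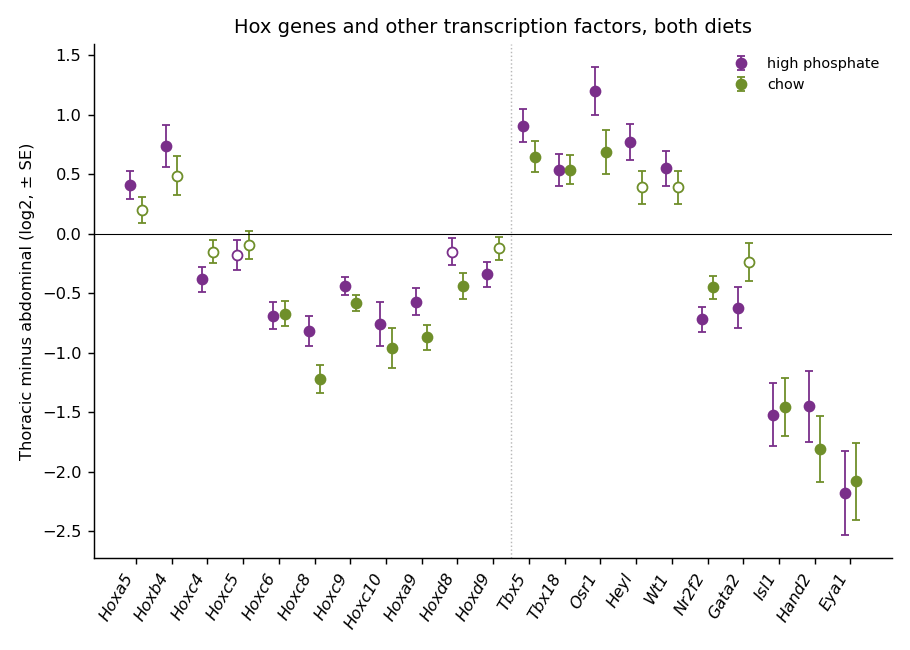
Thoracic minus abdominal difference (log2, ± SE) of 11 Hox genes and 10 other transcription factors on high phosphate (purple) and on chow (green), with filled points where the gene was called and open points where it was not. The HoxC genes drawn lie below 0 on both diets, from -0.18 for Hoxc5 to -0.82 for Hoxc8 on high phosphate, and Hoxa5 and Hoxb4 lie above it.

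In Wnt signalling, which patterns tissues through secreted ligands and their inhibitors, 8 of 32 genes were higher in thoracic and 2 in abdominal. Of all genes 7.57% and 6.25% were. The secreted inhibitors went both ways. Sfrp2 was 6.53, 6.47, 6.81 and 6.71 against 7.90, 8.32 and 7.82 (1.39 ± 0.146, adjusted p 7.82e-05), while Sfrp5 was 5.65, 5.75, 5.77 and 5.54 against 4.17, 4.73 and 4.47 (-1.22 ± 0.137, adjusted p 0.000141). The groups of both genes were well apart. Both calls held with array 3 alone, at 1.21 (adjusted p 0.0254) and -1.31 (adjusted p 0.0168), and under both covariates, at 1.31 (adjusted p 0.0348) and -1.36 (adjusted p 0.028). Frzb, also an inhibitor, differed by 1.52 ± 0.266, Sfrp1 by 0.69 ± 0.154, the receptor Fzd1 by 0.46 ± 0.0966 and Lgr6, a receptor for R-spondins, by 0.76 ± 0.126. Without abdominal arrays 1, 2 and 4, Sfrp2 and Sfrp5 were the only calls of the list, and Frzb differed by 0.78 (adjusted p 0.36), Sfrp1 by 0.39, Fzd1 by 0.17 and Lgr6 by 0.46.

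In TGF-beta and BMP signalling, which controls matrix synthesis, 9 of 32 were higher in thoracic and 4 in abdominal, against 7.57% and 6.25% of all genes. The ligand Tgfb2 was 6.60, 6.25, 7.31 and 6.50 against 7.99, 7.46 and 8.02 (1.16 ± 0.204, adjusted p 0.00209). Ccn2, a matricellular protein induced by TGF-beta, differed by 1.08 ± 0.207. Bmp2 was 5.94, 5.83, 5.88 and 5.93 against 5.65, 5.30 and 5.46 (-0.43 ± 0.11, adjusted p 0.019), a call lost without abdominal array 1, thoracic array 2 or thoracic array 3 (adjusted p up to 0.0903). In the fit with abdominal array 3 only, limma called 0 of the 32, with 5 at an unadjusted p under 0.05, and Tgfb2 differed by 0.52 (adjusted p 0.363) and Ccn2 by 0.56 (adjusted p 0.422).

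Among genes of vascular tone 10 of 41 were higher in thoracic and 4 in abdominal, and among ion channels 7 and 8 of 42. Over all genes the shares were 7.57% and 6.25%. Ace, which forms angiotensin II, was higher in thoracic by 0.87 ± 0.136, the prostacyclin synthase Ptgis by 1.27 ± 0.229 and the serotonin receptor Htr1b by 0.90 ± 0.166. Gja1, connexin 43, which couples neighbouring cells, was 7.74, 7.44, 8.12 and 7.58 against 9.04, 8.74 and 8.87 (1.16 ± 0.137, adjusted p 0.000194), and with array 3 alone it differed by 0.77 (adjusted p 0.0391). Cacna1c, the pore of the L-type calcium channel, differed by 0.55 ± 0.0946. The neuronal potassium channel Kcna1 (-0.92 ± 0.126) and the neuronal sodium channel Scn3a (-1.67 ± 0.259) were higher in abdominal arrays, where nerve genes were high. The part of nerve tissue in these 2 was not tested. On abdominal array 3 alone, limma called 0 of the 41 genes of vascular tone, with 11 at an unadjusted p under 0.05, and 1 and 3 of the 42 ion channels. Ace then differed by 0.44 (adjusted p 0.175), Ptgis by 0.63 (adjusted p 0.371), Htr1b by 0.49 (adjusted p 0.387) and Cacna1c by 0.37 (adjusted p 0.268).

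Mitochondrial genes were higher in thoracic arrays by small steps. Of 32 genes of oxidative phosphorylation, the chain of enzymes that makes ATP in mitochondria, 31 were called higher in thoracic and 0 in abdominal, with a median of 0.53 and a range of 0.17 to 0.78. Ndufa9, a subunit of complex I, read 9.90, 10.04, 10.25 and 9.96 in the abdominal and 10.87, 10.87 and 10.62 in the thoracic arrays (0.75 ± 0.0902, adjusted p 0.000196). Cox5b, a subunit of complex IV, differed by 0.55 ± 0.0811. The list mean was 9.19, 9.23, 9.39 and 9.24 against 9.92, 9.84 and 9.59, so that thoracic array 3 was nearest to the abdominal arrays. Of 24 genes of fatty acid oxidation and the citric acid cycle 17 were higher in thoracic and 1 in abdominal (median 0.60), among them citrate synthase (Cs, 0.70 ± 0.11) and the thiolase Acaa2 (0.91 ± 0.157).

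With array 3 as the only abdominal array limma called 0 of these 32 and 0 of these 24 genes, with 17 and 11 at an unadjusted p under 0.05 and medians of 0.38 and 0.51. On chow it also called 0 of either list, with 15 and 4 at an unadjusted p under 0.05 and medians of 0.21 and 0.14. Under both covariates limma called 0 of either list on high phosphate, with 15 and 4 at an unadjusted p under 0.05 and medians of 0.30 and 0.28. The mean of the 32 genes lay between 9.87 and 10.18 in the abdominal and between 10.1 and 10.3 in the thoracic chow arrays.

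Genes of brown fat, which burns fatty acids for heat, were called higher in thoracic for 6 of 18 and in abdominal for 0, with a median of 0.51. Ucp1, which uncouples respiration from ATP synthesis, was 7.01, 9.03, 8.43 and 7.34 against 9.49, 10.32 and 8.84 (1.60 ± 0.396, adjusted p 0.0155). Abdominal array 2 was above thoracic array 3, and the call was lost without thoracic array 2 (adjusted p 0.0789). Cox7a1, a muscle and brown fat subunit of complex IV, was 7.19, 8.17, 8.28 and 7.74 against 9.58, 9.80 and 8.97 (1.60 ± 0.234, adjusted p 0.000674), and Cox8b differed by 1.15 ± 0.144. Of 19 genes common to all fat cells 8 were higher in thoracic and 0 in abdominal on high phosphate (median 0.52), but without thoracic array 2 only 1 was called. Against abdominal array 3 only, limma called 0 of the 18 brown fat and 0 of the 19 other fat cell genes, with 7 and 2 at an unadjusted p under 0.05 and medians of 0.42 and 0.29. Cox7a1 then differed by 1.17 (adjusted p 0.0598) and Cox8b by 0.94 (adjusted p 0.0543). On chow limma called 0 of the 19, with 1 at an unadjusted p under 0.05 and a median of 0.07. Cardiac muscle, which is rich in mitochondria, was high in the same arrays, with a cardiac list mean of 7.29 to 7.58 in thoracic and 5.63 to 5.78 in abdominal arrays. Its part in the mitochondrial difference was not tested.

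Of 17 genes of phosphate transport and of the phosphate hormones 1 was called, with a median of 0.10. Phex, an endopeptidase that limits FGF23, read 4.96, 4.85, 5.40 and 5.22 against 5.62, 5.75 and 5.65 (0.57 ± 0.167, adjusted p 0.0349). It was lost without any 1 of abdominal arrays 1 and 2 and thoracic arrays 1 to 3, with adjusted p up to 0.104. The sodium-phosphate cotransporters of vascular cells were not called. Slc20a1 was 8.36, 8.13, 7.63 and 8.02 against 7.71, 7.56 and 7.49 (-0.45 ± 0.159, adjusted p 0.0725), and Slc20a2 was 7.09, 6.65, 7.05 and 7.04 against 7.34, 7.39 and 7.24 (0.37 ± 0.145, adjusted p 0.111).

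Of 14 inhibitors of calcification and genes of pyrophosphate metabolism 3 were higher in thoracic and 1 in abdominal (median 0.24). Mgp, matrix Gla protein, which keeps the wall free of mineral, read 11.62, 11.73, 12.16 and 11.90 against 12.34, 12.28 and 12.56. The thoracic arrays were all higher, by 0.54 ± 0.134 (adjusted p 0.0153), and the call was lost without thoracic array 3 (adjusted p 0.0698). Ggcx, the enzyme that carboxylates Mgp, differed by 0.32 ± 0.0819, lost without abdominal array 2 or thoracic arrays 1 or 2 (adjusted p up to 0.0798). Sost, sclerostin, differed by 0.64 ± 0.185, lost without abdominal arrays 1 or 4 or thoracic arrays 1 or 3 (up to 0.131). Nt5e, the ectoenzyme CD73 that forms adenosine, was 8.22, 8.39, 8.33 and 8.47 against 7.91, 7.94 and 7.87 (-0.45 ± 0.0982, adjusted p 0.00834). Of 26 osteochondrogenic genes, which mark bone and cartilage formation, 1 was higher in thoracic and 2 in abdominal (median 0.09). These were the factor Dlx5 (0.56 ± 0.169, adjusted p 0.0404), and Bmp2 and Col11a1 given above. Dlx5 was lost without any 1 of thoracic arrays 1 to 3, abdominal arrays 1, 2 and 4 or thoracic chow arrays 2 and 4, with adjusted p up to 0.13. The counts of these 3 lists are to be read against the 13.8% called over all genes. The calcification list holds Ahsg, which is also in the hepatocyte list. The hepatocyte mean was 7.32 and 9.08 in abdominal arrays 3 and 4. When only abdominal array 3 was kept, the medians of the 3 lists were 0.06, 0.14 and 0.01. Mgp then differed by 0.23 (adjusted p 0.705) and Nt5e by -0.43 (adjusted p 0.259).

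Mesothelial genes, of the lining that covers organs in the chest and belly, were higher in thoracic for 7 of 19 and in abdominal for 1, with a median of 0.55. Upk3b, a uroplakin of mesothelium, was 6.07, 5.72, 6.32 and 5.91 against 7.52, 6.80 and 7.08 (1.13 ± 0.196, adjusted p 0.00192), and mesothelin (Msln) differed by 1.01 ± 0.18. Tspan8 was the 1 gene of the list higher in abdominal arrays (-1.72 ± 0.415), lost without thoracic array 1 (adjusted p 0.0564). Of 28 endothelial genes 4 were higher in thoracic and 1 in abdominal, the fenestral diaphragm protein Plvap (-0.65 ± 0.0988). Of 11 lymphatic genes 4 were higher in abdominal and 1 in thoracic. The mesothelial, endothelial and lymphatic counts are to be read against the 13.8% called over all genes. The lymphatic regulator Prox1 was 7.06, 7.03, 6.40 and 7.16 against 5.86, 5.70 and 5.73 (-1.15 ± 0.197, adjusted p 0.00178), while the integrin Itga9 was higher in thoracic by 0.53 ± 0.0945. Prox1 was lowest in abdominal array 3, as the lymphocyte genes were, and differed by -0.63 (adjusted p 0.342) with that array alone. Without abdominal arrays 1, 2 and 4, limma called 0 of the 19 mesothelial and 0 of the 11 lymphatic genes, with 6 and 5 at an unadjusted p under 0.05, and 1 of the 28 endothelial genes. Upk3b then differed by 0.82 (adjusted p 0.259), Msln by 1.13 (adjusted p 0.0908), Plvap by -0.39 (adjusted p 0.214) and Itga9 by 0.44 (adjusted p 0.152).

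Of 26 macrophage and dendritic cell genes 3 were higher in thoracic, among them the resident macrophage genes Pf4 (0.93 ± 0.171) and Folr2 (0.57 ± 0.124), and 2 in abdominal, among them the dendritic cell receptor Flt3 (-1.37 ± 0.312). In the fit with abdominal array 3 only, limma called 0 of the 26, with 4 at an unadjusted p under 0.05, and Flt3 differed by -0.43 (adjusted p 0.758). In cholesterol synthesis 3 of 14 were higher in abdominal and 0 in thoracic. Of 17 clock genes limma called 0, with 2 at an unadjusted p under 0.05, and genes of ribosomal proteins and of the cell cycle gave 1 call each, of 25 and 26. Among chemokines and their receptors 3 of 44 were higher in thoracic and 5 in abdominal, among interferon-inducible genes 0 and 3 of 25, and among thymocyte genes 0 and 3 of 13. Matrix proteases and their inhibitors were higher in thoracic for 7 of 28 and in abdominal for 1, with the inhibitor Timp1 at 1.08 ± 0.232 and the membrane-bound Mmp23 at 0.88 ± 0.145. On abdominal array 3 alone, limma called 0 of the 28, with 4 at an unadjusted p under 0.05, and Timp1 differed by 0.71 (adjusted p 0.443) and Mmp23 by 0.57 (adjusted p 0.228). Markers of adrenal cortex, lung, exocrine pancreas and kidney gave 1 call each, all higher in thoracic. The list means for adrenal cortex, lung, pancreas and kidney lay between 4.82 and 5.79 in all 7 arrays. Each count in this paragraph is to be read against the 13.8% called over all genes.

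The same contrast on chow used 8 other arrays, so that it shares no array with the one on high phosphate, only the estimate of the spread. On chow 1061 genes (4.78%) were called, 391 (1.76%) higher in thoracic and 670 (3.02%) in abdominal. Of the 3067 genes called on high phosphate 2974 had the same sign on chow. The same share over all genes was not counted. On both diets 813 genes were called in the same direction, 261 higher in thoracic and 552 in abdominal. No gene was called in opposite directions. The sympathetic list mean was 7.29 to 8.60 in abdominal and 5.73 to 5.81 in thoracic chow arrays. The part of such tissue in this agreement was not tested. The difference between the diets' segment differences was called for 0 of 22180 genes by limma, with a lowest adjusted p of 0.705, and 1217 genes (5.49%) had an unadjusted p under 0.05. With array 3 as the only abdominal high-phosphate array 48 genes were called, and without that array 1 gene was.

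Cd248, which had the smallest p for that difference among the genes named, differed between segments by 1.04 on high phosphate and by 0.11 on chow, a difference of 0.93 ± 0.173 (p 7.91e-05, adjusted p 0.705). Its mean was 7.17 in abdominal and 8.21 in thoracic high-phosphate arrays, and 8.32 and 8.43 on chow, so that the abdominal high-phosphate group stood below the other 3. Col3a1 had the same pattern, at 7.54 and 8.30 on high phosphate and 8.93 and 8.91 on chow (0.79 ± 0.165). Cox8b was 9.57 and 10.72 against 11.22 and 11.44 (0.93 ± 0.196). The sarcomere genes Lmod2 (1.66 ± 0.337), Txlnb (1.46 ± 0.302) and Tcap (0.71 ± 0.149) had larger segment differences on high phosphate. In the other direction the smallest p belonged to the hair keratin-associated gene Krtap13, with group means of 2.87 to 3.43 (-0.60 ± 0.114, adjusted p 0.705), and to Serpina1e (-0.80 ± 0.201, adjusted p 0.773), of the liver list's gene family. None of these 8 differences passed the test, which does not show that the segments differ alike on both diets.

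**Figure D5:**
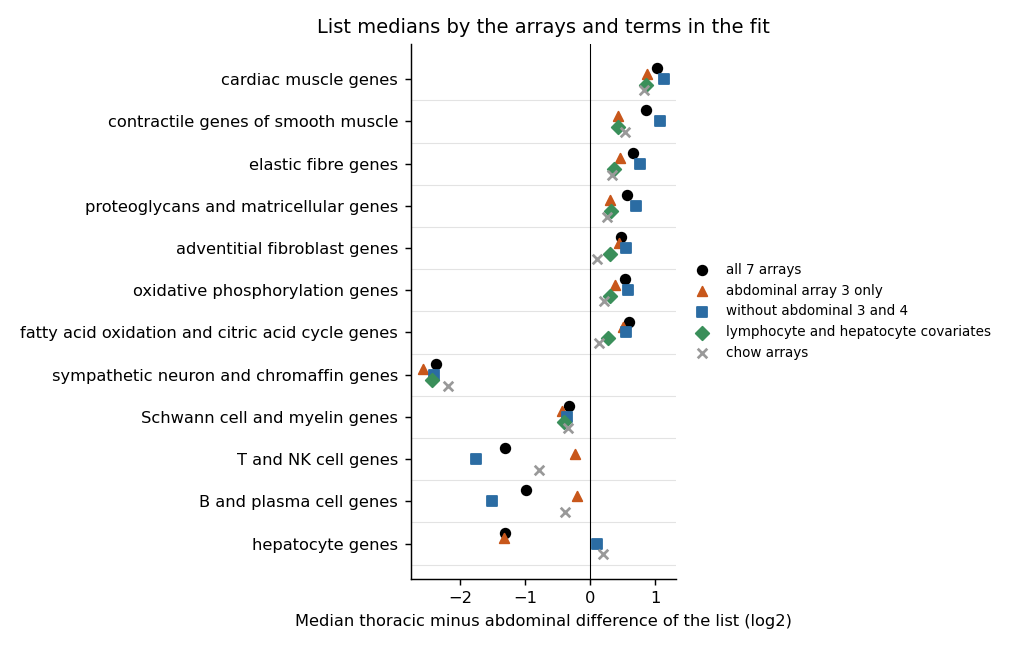
Median thoracic minus abdominal difference (log2) of 12 gene lists from all 7 high-phosphate arrays (black), with abdominal array 3 as the only abdominal array (orange), without abdominal arrays 3 and 4 (blue), with both list covariates (green, not drawn for the lists that make up the covariates) and on chow (grey). The hepatocyte median is -1.31 from all 7 arrays, 0.10 without abdominal arrays 3 and 4 and 0.19 on chow. Every other list drawn, such as the cardiac (1.03) and sympathetic (-2.37) ones, stays on its side in each version. With array 3 alone the smooth muscle median goes from 0.86 to 0.42, and the T and NK cell median goes from -1.31 to -0.24.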

How the data were processed

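RNA of 15 mouse aorta segments was labelled with a NuGEN Applause kit and hybridised to 1-colour arrays, per the labels' protocols. The authors deposited log2 values after RMA in Partek, per the submitters' processing notes, which were used as given. The base of the log is not stated there and was taken from the range of the values. Versions and scan dates were not given in the sources used here. Of 41345 probe sets, 23521 named 1 gene, and the brightest per gene by its mean over all 15 arrays left 22180 genes. A model with the 4 group means was fitted to all arrays with limma 3.58.1 in R 4.3.3 (lmFit, contrasts.fit, eBayes with a trend), with Benjamini-Hochberg adjustment over all genes and a threshold of 0.05. It was checked on simulated data. Genes named are the 20 largest called differences in each direction without overlap, the 6 smallest p per list and per direction of the diet difference, and members of the Hox, positional, smooth muscle, elastic fibre, collagen, phosphate and calcification lists. Predicted genes and pseudogenes, 360 of the calls with antigen receptor segments and olfactory receptors, are counted and not named. The comparison, the 48 lists and the alternatives were chosen with earlier results of these data known. RMA assigns a value to every probe set, so that values near the bottom of the range hold no reliable level. Same-numbered arrays of both segments correlated at 0.0308 to 0.122 on high phosphate after group means were removed. Thoracic arrays 1 and 2 matched the abdominal array of their own number best, and thoracic array 3 matched abdominal array 4 best (0.0742). With so few arrays these values cannot decide whether the segments were paired. Numbers were not taken as pairs because the labels name none.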

Additional observations from a re-analysis of the deposited data

Results flagged for a closer look

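Among 231 values tested in the 4 abdominal high-phosphate arrays, 25 (10.8%) had 1 array apart from the other 3 by Dixon's criterion, which chance gives in about 1 of 20 groups. Abdominal array 3 was the highest in 8 cases and the lowest in 8, and another array stood apart in 9.

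Abdominal array 3 was lowest for genes of immune cells and lymphatics. It read 7.91 for Il7r against 10.32 to 10.51 in the other arrays, 8.55 for Ccl5 against 11.46 to 11.52, 5.79 for Flt3 against 7.03 to 7.07 and 6.40 for Prox1 against 7.03 to 7.16. The means of macrophage and dendritic cell genes (7.26 against 7.72 to 7.74), of thymocyte genes (5.71 against 5.94 to 5.96) and of chemokines and their receptors (6.36 against 6.80 to 6.85) were also lowest there, as was the cardiac troponin gene Tnni3 (6.13 against 6.76 to 6.83).

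The same array was highest for contractile and matrix genes, with Cnn1 at 9.12 against 8.15 to 8.20, Synpo2 at 8.43 against 8.00 to 8.07, Col14a1 at 7.95 against 7.53 to 7.59 and Fmod at 7.10 against 6.95 to 6.97. It was also highest for Hoxc8 (8.32 against 7.89 to 7.94), Hoxb4 (6.59 against 5.91 to 5.95), Lgr6 (6.59 against 6.17 to 6.22) and the complex I gene Ndufa4 (11.15 against 10.99 to 11.01).

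Abdominal array 4 was highest for the liver genes Vtn (9.90 against 7.73 to 7.94) and Serpina1e (7.09 against 6.64 to 6.66) and for Myl2 (5.86 against 5.55 to 5.59). It was lowest for Snap25 (10.72 against 11.11 to 11.17), Itga9 (7.23 against 7.52 to 7.56) and Kl (4.67 against 4.92 to 4.94). Abdominal array 1 was lowest for Myh6 (4.84 against 5.23 to 5.24). Abdominal array 2 was highest for Fbn2 (4.74 against 4.64 to 4.65) and lowest for the phosphate transporter gene Slc20a2 (6.65 against 7.04 to 7.09).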

How the results depend on the processing

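On high phosphate 3067 genes were called. This fell to 1518 with a minimum of 1.5-fold, to 296 with array 3 as the only abdominal array, to 346 with the lymphocyte covariate and to 62 with the hepatocyte covariate added. Leaving out 1 array gave 1695 to 4025. The other settings gave 2216 to 4469, the highest at an adjusted p of 0.1. On chow 1061 became 1795 at 0.1, 641 with the 1.5-fold rule, 530 with the lymphocyte covariate, 490 with both covariates, and 500 (without abdominal array 4) to 1369 without 1 array. The count was 695 without thoracic chow array 1, 622 without thoracic chow array 4 and 702 without abdominal chow array 3. Calls for the difference between diets went from 0 to 48 with array 3 as the only abdominal array, and 0 to 1 without 1 array. The replicate block gave 2670 calls and ended 6 of the 167 calls among 183 genes tracked. No call among them was lost without the trend, with quantile normalisation, with array weights or at 0.1. With array 3 alone 110 were lost and 3 gained, with the lymphocyte covariate 94 were lost and with both covariates 133, and in every fit without 1 array 154 genes kept their side of the threshold. Under both covariates Ccl5 came to 0.01, Hoxa5 to -0.01 and Dlx5 to 0.00, values near 0 on the other side of it, and these 3 lost their calls as well, beside the 133. Fits that leave arrays out also rest on fewer samples, and fits with covariates can lose a call with little change in its size. The cause of these changes was not tested.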

Other observations

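Of 17824 probe sets that could not be given a single gene, 845 were called between the segments on high phosphate by the same limma fit, 515 higher in thoracic and 330 in abdominal. For called genes with more than 1 probe set, 309 other probe sets were measured. Of these, 39 had the opposite sign, 15 of them with a p under 0.05.

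Calls that held with array 3 as the only abdominal array, without abdominal arrays 3 and 4 and in the 3 fits with list covariates numbered 53, with 31 higher in thoracic and 22 in abdominal. Among them were Ankrd1 (4.07 under both covariates, adjusted p 1.57e-05), Vcan, Efemp1, Sfrp2 and Sfrp5. Lrp2, the endocytic receptor megalin, was not among these 53. It was higher in thoracic by 0.87 ± 0.113 on high phosphate and by 0.70 on chow.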
